A study of Homo sapiens with 10 samples.

Results

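The K562 and THP1 cell lines were compared gene by gene in bulk RNA sequencing. K562 is an erythroid line from a chronic myeloid leukaemia in blast crisis, and THP1 is a monocytic line from an acute myeloid leukaemia. They are 2 of the 10 libraries of a study of in vitro pools, which also holds the pure lines HL60 (promyelocytic leukaemia) and SUDHL4 (B cell lymphoma) and 6 mixtures of the 4 lines. Both cultures were labelled wild type (WT), untreated and Day 0, and both grew in RPMI medium with 10% serum. Each line is an immortalised culture sequenced once, so a difference describes these libraries, has no replicate check and carries no p-value. The labels name a total RNA kit and an mRNA kit without saying which library was made with which. Genes entered the comparison when the deposited level was 5 or more in either line, which held for 10995 of the 20591 genes in the table. The measure of difference was log2((K562 + 1)/(THP1 + 1)), positive where K562 was higher. The added 1 makes it understate the ratio of genes with low levels. A gene at 5 or more in one line and at 0 in the other is more than 4-fold apart by this measure. Counts in lists with levels near 0 in one line are therefore partly set by the minimum level.

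Red cell precursors switch on a small set of genes under the transcription factors GATA1, TAL1 and KLF1, among them the globins, the haem synthesis enzymes and the proteins of the red cell membrane skeleton. Monocytes depend instead on PU.1 (gene SPI1), C/EBP factors and IRF8, and make receptors for antibodies and microbial products, granule enzymes and the machinery of phagocytosis. GATA1 and PU.1 can each oppose the activity of the other, which is why the erythroid and the monocytic fate are often studied as a pair.

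Levels are given as normalised CPM, that is reads per 1000000 reads after a rescaling between libraries by the authors. The K562 library held 34571443 reads and the THP1 library 32278674, within the range of 24985570 to 36607612 over the 10 libraries. The authors' values hold 0.5 more than the reads of each gene read at all, so that a gene with 1 read was written as 0.0424 in K562 and 0.0458 in THP1. A count of 0 was taken to allow up to 3 reads, or 0.0847 and 0.0917 without the added 0.5. Intervals and ratios of reads are also without it, so a ratio of few reads differs from that of the printed levels. Intervals on a level are exact 95% Poisson intervals of the reads behind it, and they cover counting error only. A level is an average over a culture, so fewer expressing cells and less RNA per cell cannot be told apart. The levels of 15 erythroid and 16 monocytic marker genes were read in these 2 libraries. These are the same values as compared below, and gene lists were chosen with earlier results of these data known. The markers are therefore no independent check of the labels. Of the erythroid markers, 14 were at least 4-fold higher in K562, their summed level was 8485 in K562 and 57.3 in THP1, and 9 had 0 reads in THP1. The exception was the erythropoietin receptor EPOR, at 7.53 and 5.36. Of the monocytic markers, 15 were at least 4-fold higher in THP1, their summed level was 38.9 in K562 and 4454 in THP1, and 6 had 0 reads in K562. The remaining one, CEBPA, was under the minimum level in both lines, at 0 and 4.23. The markers of other cell types that reached 5 were few in the B cell list (1 of 11) and in the T and NK cell list (2 of 8), but 6 of 9 epithelial and stromal markers did, as described further on.

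**Figure D1:**
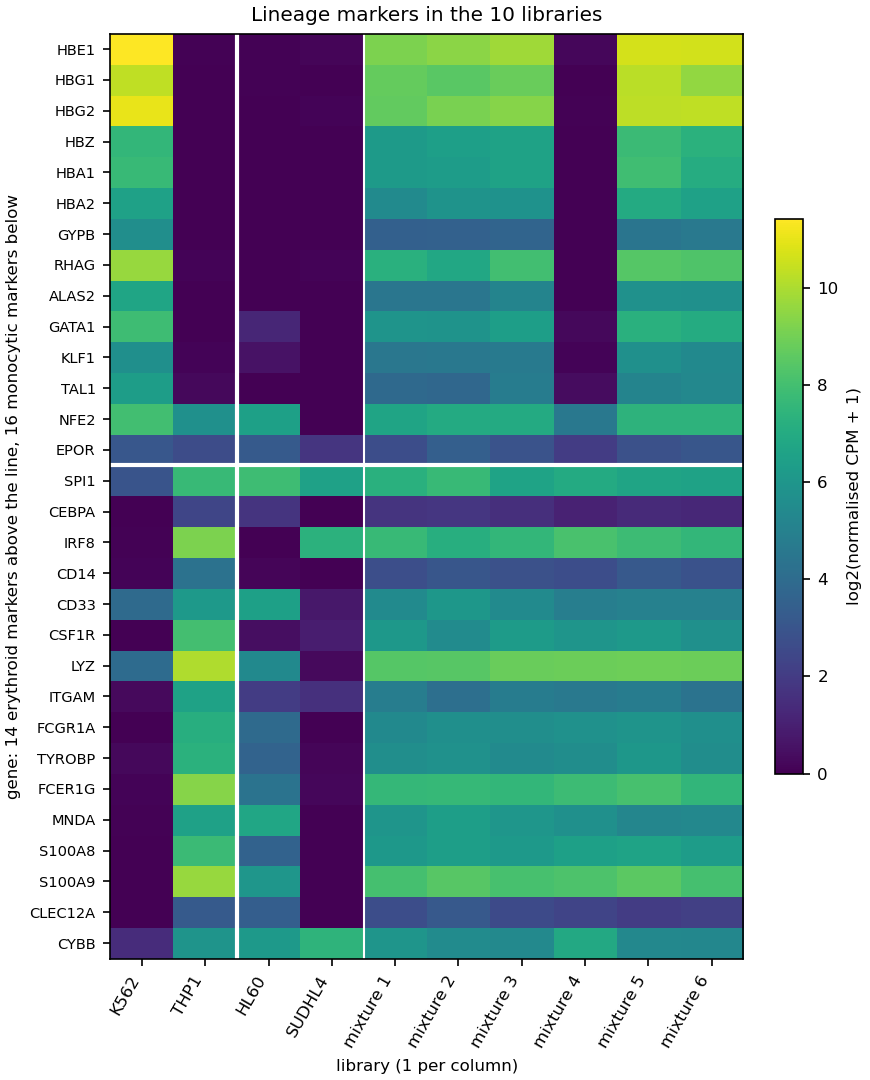
Levels of 14 of the erythroid markers (above the line) and the 16 monocytic markers (below it) in the pure lines and mixtures, as log2(normalised CPM + 1). Bright cells are high levels: the erythroid markers other than NFE2 and EPOR are bright in K562 and near 0 in THP1. The monocytic markers are brighter in THP1, with CEBPA under the minimum level in both lines.

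Of the 10995 genes, 2522 (22.9%) lay at least 4-fold apart, that is 2 log2 units or more. K562 was higher for 1015 of them (9.23%) and THP1 for 1507 (13.7%), while 5834 genes (53.1%) were within 2-fold. The counts of the gene lists below are to be read beside the shares of 9.23% and 13.7%. The median over all genes was 0.23 log2 units in favour of K562, with quartiles of −0.75 and 1.03, so the 2 directions were uneven in opposite ways: more genes were slightly higher in K562 and more were far higher in THP1. At 8-fold, 485 genes were higher in K562 and 996 in THP1, and at 128-fold 28 and 76. The genes higher in K562 took 9.91% of the reads of K562 and 1.04% of those of THP1. The genes higher in THP1 took 17.2% of the THP1 reads and 1.35% of the K562 reads. Scaling the 2 libraries to equal total reads gave 1037 and 1516 genes. Scaling by the median ratio of all genes moved the median of all genes by −0.21 log2 units and gave 875 and 1635. The median of all genes was then 0.02, and 0.05 with scaling by housekeeping genes. The slight excess in K562 therefore depended on the scaling. At the edge of the 4-fold limit, GATA2 (118 against 28.8) and PCOLCE2 (1.28 against 8.14) were just inside, and PRKAB1 (120.0 against 29.3) and CCDC92 (3.85 against 18.4) just outside.

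**Figure D2:**
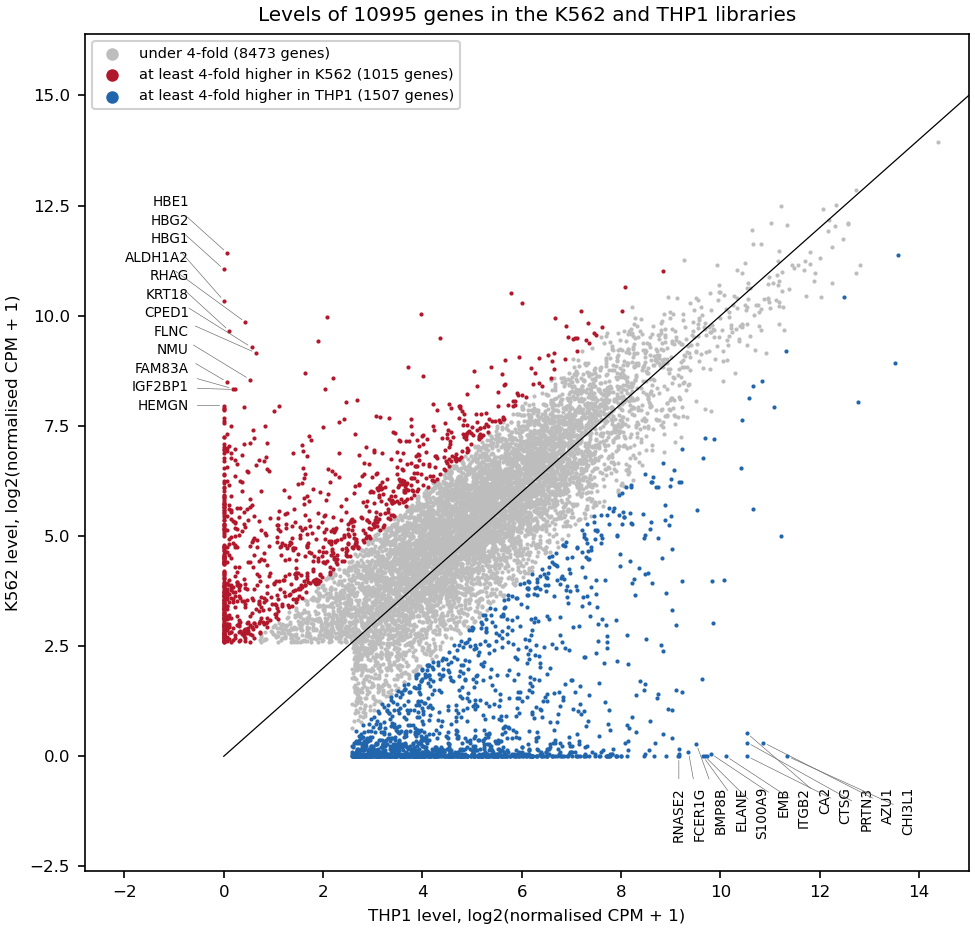
Level in K562 against level in THP1 for the 10995 genes, both as log2(normalised CPM + 1), with the 12 genes of largest difference named in each direction. The 1015 genes higher in K562 lie above the diagonal and the 1507 higher in THP1 below it, and the named genes sit near 0 in the line where they are low.

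In K562, the 12 genes with the largest differences were 3 globins, 2 red cell genes and 7 genes of other kinds. The embryonic globin HBE1 stood at 2755 (95% interval 2738 to 2773) in K562 and at 0.0458, a single read, in THP1, a log2 difference of 11.36. The fetal globins HBG2 (2126) and HBG1 (1298.5) had no read in THP1 and were at least 23195-fold and 14165-fold higher in K562. These 2 genes are near-identical copies, so the split of reads between them is uncertain. RHAG, which encodes the Rh-associated glycoprotein of the red cell membrane, was at 807 against 0.0764, and HEMGN, which encodes the haematopoietic nuclear protein hemogen, at 248 against 0. The others included ALDH1A2, which makes retinoic acid (924 against 0.351, log2 difference 9.42), the epithelial keratin KRT18 (621 against 0.474), the neuropeptide gene NMU (361 against 0.0458, 1 read) and the actin crosslinker FLNC (374 against 0.443). CPED1 (569 against 0.565), FAM83A (324 against 0.138) and the RNA-binding oncofetal gene IGF2BP1 (319.8 against 0.168) completed the set.

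The globin genes and AHSP, the chaperone of free alpha globin, formed 1 list. Of its 11 measured members, 8 reached the minimum level, 7 globins and AHSP, and all 8 were at least 4-fold higher in K562, with a median difference of 7.62 log2 units (11.06 with a count of 0 set to 3 reads). The summed level was 6702 in K562 and 0.153 in THP1. The alpha-type genes were read in K562 as well: the embryonic HBZ at 188, HBA1 at 205 and HBA2 at 92.9, the last pair being near-identical, with no read in THP1 for any of the 3. The adult beta-type genes were represented by HBD at 20.6 and HBB at 1.43, which was under the minimum level, again with no read in THP1. AHSP was at 8.23 and 0.

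Haem synthesis genes divided. Of 12 compared, 5 were at least 4-fold higher in K562 and 1 in THP1, with a list median of 1.74 log2 units beside 0.23 over all genes. ALAS2, the erythroid form of the first enzyme, was at 103 in K562 with no read in THP1. The general form ALAS1 was at 36.3 in K562 and 78.2 in THP1, a difference of −1.09. Among the later steps, UROD (538 against 60.98), CPOX (93.7 against 10.2) and the iron-inserting FECH (113 against 13.6) were higher in K562. ALAD, the second enzyme, went the other way, at 11.9 against 74.6 (log2 difference −2.55). The pathway was therefore not uniformly higher in K562.

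Red cell membrane genes were higher in K562 for 16 of 20 compared and higher in THP1 for 1, with a median of 4.27 log2 units (5.84 with zeros at 3 reads). The glycophorin GYPB (49.9), which carries blood group antigens and has close copies, had no read in THP1. Neither had the blood group genes KEL (44.9) and RHD (42.3). Of the spectrin skeleton, SPTB was at 202 against 4.38, the spectrin anchor ANK1 at 248 against 1.18, and protein 4.1 (EPB41) at 430.3 against 31.9. GYPC (191 against 105) and ERMAP (69.5 against 73.9) were within 2-fold, and the complement receptor CR1 was at 0 in K562 and 7.78 in THP1.

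Iron genes had 2 of 12 higher in K562 and 2 in THP1 (16.7% each way, beside 9.23% and 13.7% of all genes, with a median of 1.17). The 2 for THP1 became 0 with a minimum level of 20 or a pseudocount of 5. So few genes say nothing about the list as a whole. TFR2, a transferrin receptor of erythroid cells and liver, was at 83.4 against 7.32, and the mitochondrial iron importer SLC25A37 (mitoferrin) at 111 against 23.1. The main transferrin receptor TFRC was at 376 against 135, a difference of 1.47. Ferritin heavy chain FTH1 was at 2462 against 615, just under 4-fold, and passed it with total-read scaling. Ferritin light chain FTL was at 4179 against 5084. The 2 genes higher in THP1 belong to iron recycling: the phagosomal transporter SLC11A1 (1.06 against 13.2) and haem oxygenase HMOX1 (0.127 against 6.58).

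The erythroid and megakaryocyte transcription factors were higher in K562 for 10 of 16 and in THP1 for 2, with a median of 2.16. GATA1 was at 236 (interval 231 to 241) in K562 with no read in THP1, at least 2575-fold higher. GFI1B, a repressor that acts with it, was at 57.8 and 0, and MECOM, a stem cell and megakaryocyte factor, at 32.99 and 0. TAL1 was at 81.8 against 0.168, and KLF1 at 50.8 against 0.0764, which is 2 reads and a ratio of 830 between reads scaled without the added 0.5 (95% counting interval 230 to 6861). NFE2, which acts on globin and platelet genes, was present in both lines, at 249 and 51.6 (log2 difference 2.25). The calls of GATA2 (2.00) and of the GATA1 cofactor ZFPM1 (2.06) were lost with median-ratio scaling, at 1.81 and 1.89. Factors shared by progenitors were not set apart by 4-fold: LYL1 (44.9 against 53.03), MYB (163 against 262) and LMO2 (68.996 against 199). The 2 genes higher in THP1 were FLI1, an ETS factor of megakaryocytes and other blood cells (122), and BCL11A, the repressor of fetal globin (10.7), each with no read in K562.

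Of the megakaryocyte and platelet list, 10 of 17 genes were measured and 4 reached the minimum level, 2 in each direction. The platelet tubulin TUBB1 was at 25.9 against 0.0458 and the collagen receptor GP6 at 6.79 against 0. PLEK (0.0706 against 191) and RGS18 (0.0424 against 36.1), which platelets share with other leukocytes, were higher in THP1. The platelet integrin ITGA2B was at 1.96 in K562 and 0.565 in THP1, under the minimum in both.

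GATA1 binds the core letters AGATAA. To show what these letters look like near genes higher in K562, 60 bases are given for the 5 genes of largest difference, among those at 50 or more, that hold AGATAA or its reverse complement TTATCT within 250 bases before the annotated start. The genes were chosen after their values were seen. Sequences and positions are from RefSeq in the GRCh38.p14 build (the authors aligned to hg19), each read 5′ to 3′ on the gene's strand, with the motif in capitals.
PKLR: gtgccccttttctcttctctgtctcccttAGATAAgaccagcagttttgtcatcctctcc
ALAS2: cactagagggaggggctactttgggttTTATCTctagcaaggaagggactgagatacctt
TAL1: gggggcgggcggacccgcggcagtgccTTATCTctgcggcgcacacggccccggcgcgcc
SLC18B1: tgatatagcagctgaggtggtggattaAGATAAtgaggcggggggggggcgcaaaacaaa
SPTB: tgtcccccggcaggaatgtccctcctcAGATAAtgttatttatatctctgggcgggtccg

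The stretch of PKLR, the pyruvate kinase of liver and red cells (159 against 0.0458), lies at chr1:155301439-155301498 on the minus strand, and its motif begins 31 bases before the start. That of ALAS2 lies at chrX:55031072-55031131 (minus, 127 bases), that of TAL1 at chr1:47232338-47232397 (minus, 35 bases) and that of SPTB at chr14:64879917-64879976 (minus, 42 bases). That of SLC18B1, a polyamine transporter gene (59.8 against 0), lies at chr6:132798694-132798753 (minus, 89 bases). Over all 27305 promoters of the table, in windows from 250 bases before to 50 after the start, 10.5% hold AGATAA on either strand. A promoter was matched for 757 of the 1015 genes higher in K562 (74.6%), 1143 of the 1507 higher in THP1 (75.8%) and 8740 of all compared (79.5%). With under 80% matched, a comparison of motif shares between these sets is void and was not made. A match is a description of letters and does not show binding.

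In THP1, the 12 genes with the largest differences included 5 granule genes and several genes of inflammation and adhesion. CHI3L1, a secreted chitinase-like glycoprotein of macrophages, was at 2609 with no read in K562, at least 30794-fold higher in THP1. The granule genes were AZU1 (0.24 against 1867), CTSG (0 against 1486), PRTN3 (0.24 against 1489), ELANE (0 against 801) and RNASE2 (0 against 572). The first 4 encode azurocidin, cathepsin G, proteinase 3 and neutrophil elastase, and the last an eosinophil-type ribonuclease. ITGB2, the common chain of the leukocyte integrins, was at 0 in K562 and 1107 in THP1, S100A9, a subunit of calprotectin, at 0 and 823, and FCER1G, the shared signalling chain of Fc receptors, at 0.0706 and 655. The carbonic anhydrase gene CA2 (0.438 against 1483), EMB, which encodes the membrane protein embigin (0.0424 against 894), and BMP8B, of the bone morphogenetic protein family (0.212 against 732), completed the set.

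Myeloid transcription factors were higher in THP1 for 10 of 15 compared and higher in K562 for none, with a median of −3.15 log2 units (−4.91 with zeros at 3 reads). SPI1, which encodes PU.1, was at 6.88 in K562 and 206 in THP1 (−4.71). IRF8, a factor of monocytes and dendritic cells, was at 0.0424, or 1 read, against 570.2, and IRF5, a factor of inflammatory macrophages, at 0 against 152. RUNX3 (0.0706 against 108) and the repressor GFI1 (0.353 against 122) showed the same order, the latter opposite to its paralogue GFI1B. The C/EBP genes were mixed: CEBPD was at 1.20 against 21.8, CEBPB at 12.6 against 6.13 and CEBPG at 91.4 against 78.9. RUNX1 was present in both, at 50.3 and 198, just under 4-fold, and beyond it with median-ratio scaling (−2.16).

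PU.1 binds letters of the form GAGGAAGT. The 5 genes of largest difference in the direction of THP1 with GAGGAAGT or ACTTCCTC in the 250 bases before the start, chosen in the same way, read as follows.
PRTN3: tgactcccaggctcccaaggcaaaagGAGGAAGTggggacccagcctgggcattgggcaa
PLD4: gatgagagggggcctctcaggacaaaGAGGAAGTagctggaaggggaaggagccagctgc
INPP5D: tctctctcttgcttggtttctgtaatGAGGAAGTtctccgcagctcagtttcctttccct
LST1: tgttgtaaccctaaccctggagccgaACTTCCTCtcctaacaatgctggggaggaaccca
SATB1: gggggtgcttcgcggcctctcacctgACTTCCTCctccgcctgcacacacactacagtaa

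These stretches lie at chr19:840885-840944 (PRTN3, plus strand, motif from 88 bases before the start), chr14:104924798-104924857 (PLD4, plus, 55 bases) and chr2:233060253-233060312 (INPP5D, plus, 63 bases). The other 2 lie at chr6:31586135-31586194 (LST1, plus, 116 bases) and chr3:18445619-18445678 (SATB1, minus, 60 bases). PLD4, an endolysosomal nuclease, was at 0 in K562 and 350.1 in THP1, LST1, a leukocyte membrane protein, at 0.24 and 269, and SATB1, a chromatin organiser, at 0.522 and 217. Over all promoters of the table, 2.54% hold these letters on either strand.

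Monocyte and macrophage markers were higher in THP1 for 18 of 18 compared, with a median of −5.09 (−7.22 with zeros at 3 reads), and for 11 with a pseudocount of 5. The other 7 of the 25 measured were under 5 in both lines. The receptor of macrophage colony-stimulating factor, CSF1R, was at 0 and 256 (at least 3022-fold), the matrix proteoglycan VCAN at 0 and 209, and the membrane gene MS4A6A at 0.0424 and 355. Lysozyme, LYZ, was read in K562 too, at 15.01 against 1078, as was CD33 at 14.6 against 70.2. The signalling adaptor TYROBP was at 0.184 and 157. Several markers of mature monocytes were modest in THP1: the lipopolysaccharide co-receptor CD14 was at 19.1, the haemoglobin scavenger receptor CD163 at 7.81, and FCN1 had no read in either line.

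Granule genes were higher in THP1 for 9 of 10 compared and in K562 for none (median −6.52). Myeloperoxidase, MPO, was at 0.212 in K562 and 9.88 in THP1, a difference of −3.17. The granule proteoglycan SRGN was read in both lines, at 243 and 2169. SERPINB1, which inhibits the granule proteases, was the one not set apart, at 153 in K562 and 61.5 in THP1. S100 genes were higher in THP1 for 7 of 8 (median −5.98), with S100A8, the partner of S100A9, at 0 against 218, S100A4 at 1.82 against 554 and S100A6 at 4.28 against 458. S100A11 was at 109 against 291, short of 4-fold.

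The phagocyte NADPH oxidase, which makes superoxide, was higher in THP1 for 7 of 8 genes (median −3.66). Of its membrane pair, CYBB was at 1.74 against 59.5 and CYBA at 68.8 against 504. Its cytosolic subunits NCF4 (119) and NCF1 (27.6, which has near-identical pseudogenes) had no read in K562. The GTPase RAC2 was at 44.6 against 288, while the ubiquitous RAC1 was at 373 against 406.

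Fc and inhibitory receptors were higher in THP1 for 7 of 8 compared (median −6.01), and 12 of the 20 measured were under the minimum in both lines. Without a minimum level the list median was −1.66. FCGR1A, the high-affinity IgG receptor, was at 0 and 143, the inhibitory receptor LILRB4 at 0 and 187, and FCGRT, the neonatal Fc receptor, at 1.09 and 215. FCGR2A, a low-affinity IgG receptor, was the one not set apart, at 50.1 and 51.99. Members of the LILR family resemble each other closely, so single values are uncertain.

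Pattern recognition genes were higher in THP1 for 7 of 13 (median −2.74), and for 4 with a minimum level of 20. The receptors TLR2 (69.4) and TLR4 (18.4), the DNA sensor CGAS (21.5) and the negative regulator IRAK3 (73.2) had no read in K562. STING1, which acts downstream of CGAS, was at 37.8 against 258, and the adaptor MYD88 at 34.7 against 32.3. The signalling genes IRAK1 (−0.30), IRAK4 (0.23) and TICAM1 (−0.02) were within 2-fold.

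Inflammasome genes were higher in THP1 for 11 of 13 compared (median −4.48), and for 7 with a minimum level of 20. The sensor NLRP3 was at 0 and 83.8, the adaptor PYCARD at 2.10 and 116, caspase 1 (CASP1) at 0 and 42.3, CASP4 at 0.0424 and 65.4, and the pore protein GSDMD at 0.607 and 49.9. The chain from sensor to pore was thus low in K562 at each of these steps. NLRP1 was the member with the opposite sign, at 13.4 against 4.51 (1.38).

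Leukocyte integrins and cytoskeletal genes were higher in THP1 for 12 of 18 and in K562 for 1 (median −4.61). The alpha chains that pair with ITGB2 were low in K562, with ITGAL at 0 against 256 and ITGAM at 0.212 against 93.9. The actin-binding genes CORO1A (2.39 against 793) and LSP1 (0.0988 against 198) showed the same order. LCP1 (plastin) was read in both lines, at 585 and 2543 (−2.12). ITGB1, the general beta chain, was at 243 against 63.6, short of 4-fold, and ICAM1, an adhesion ligand of the leukocyte integrins, was the gene higher in K562, at 34.6 against 3.16. Of the chemokine and cytokine genes, 4 of 8 compared were higher in THP1: IL6R (0.325 against 518), CCR2 (0 against 238), CCR1 (0 against 73.9) and CXCR4 (0.155 against 36.7). All 4 encode receptors. The 2 ligand genes compared, CXCL8 (−1.62) and TGFB1 (1.08), were short of 4-fold.

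**Figure D3:**
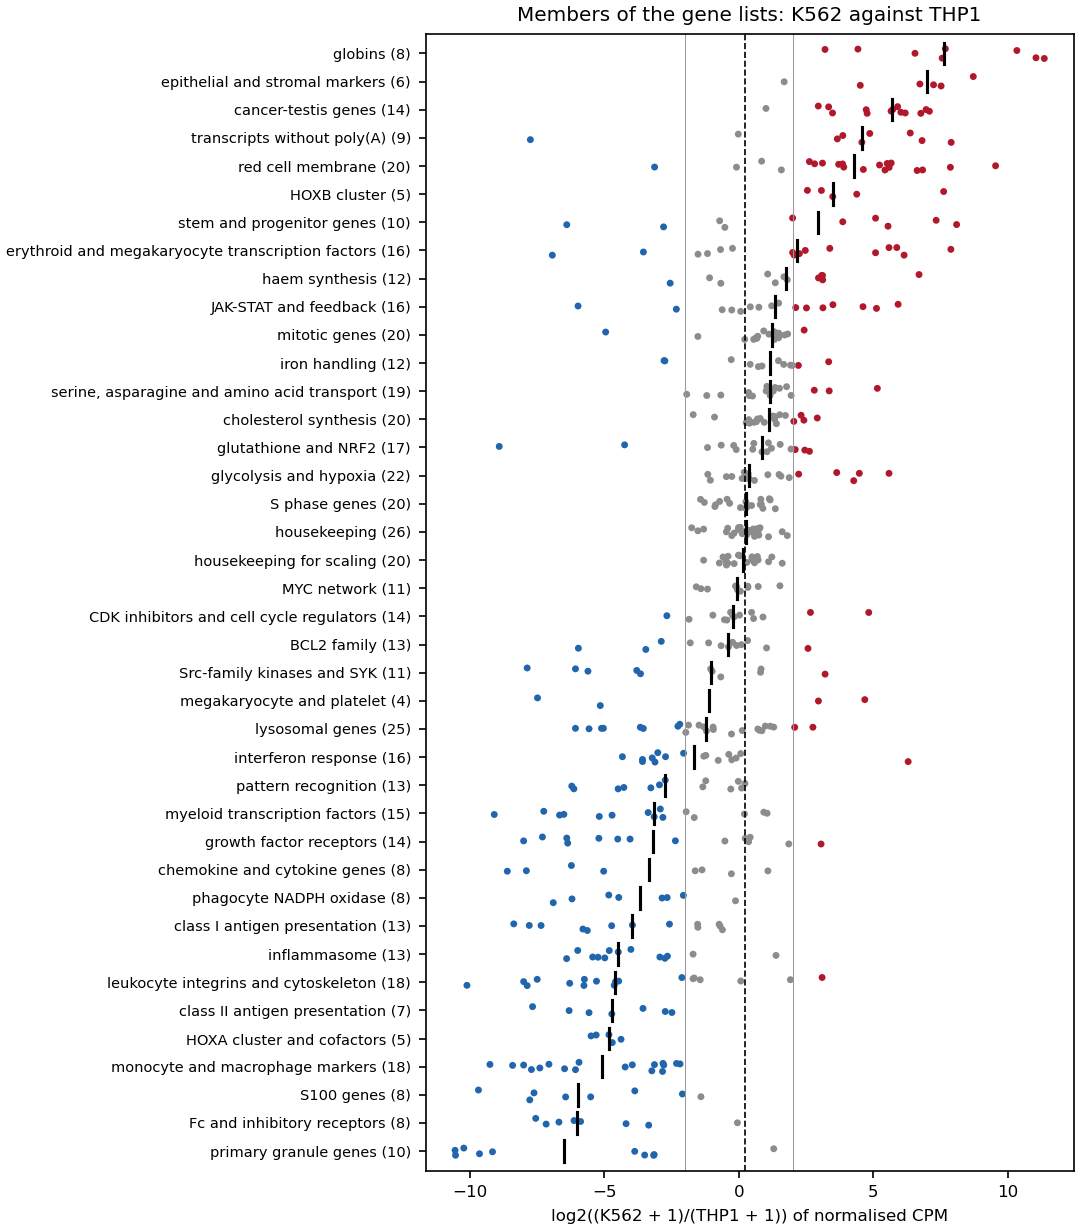
Log2 difference between K562 and THP1, log2((K562 + 1)/(THP1 + 1)), for each member of the gene lists at 5 or more in either line, with the list median as a black tick, the all-gene median of 0.23 as a dashed line and the 4-fold limits as thin lines. The globin (median 7.62) and red cell membrane lists (4.27) lie to the side of K562, the monocyte (−5.09) and granule lists (−6.52) to the side of THP1, and the S phase (0.28) and MYC lists (−0.05) near the centre.

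Antigen presentation genes were lower in K562 in both classes. Of 13 class I genes compared, 8 were higher in THP1 and none in K562 (median −3.96). HLA-B was at 0.24 against 409.9, and HLA-C at 1.20 against 108. The immunoproteasome subunits PSMB8 (0.268 against 281) and PSMB9 (0.155 against 63.4), the peptide transporter TAP1 (4.62 against 86.2) and the class I activator NLRC5 (0.0424 against 26.7) showed the same order. The light chain B2M (368 against 1060.3) and TAP2 (13.5 against 23.1) were present in K562 and short of 4-fold. Of the class II list, 7 of 7 compared were higher in THP1 (median −4.72), and 4 with a minimum level of 20. The other 6 of the 13 measured were under 5 in both lines, and the median without a minimum level was −2.49. The whole list summed to 2.82 in K562, so the 7 passed the minimum level through THP1 only, which partly sets the count. The invariant chain CD74 was at 0.127 against 229 and HLA-DRB1 at 0 against 78.5. Levels in THP1 were uneven, with HLA-DRA at 5.67 and the class II activator CIITA at 1.02. HLA genes are polymorphic and resemble each other, so reads of one may be lost or assigned to another.

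Interferon response genes were higher in THP1 for 8 of 16 compared and in K562 for 1 (median −1.68). Most of these were low: with a minimum level of 20 the count for THP1 was 2 and the median −0.77, and with a pseudocount of 5 the count was 1. MX2 was at 0.0706 against 20.5 and OAS3 at 0.918 against 16.9, both antiviral effectors. IFITM1, which blocks viral entry, had the opposite order, at 322 against 3.10 (6.30), whereas its neighbours in the family IFITM2 (37.1 against 93.03) and IFITM3 (39.5 against 67.9) were short of 4-fold.

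Lysosomal genes were higher in THP1 for 8 of 25 and in K562 for 2 (median −1.20). The cysteine protease CTSS was at 2.02 against 143, the acid lipase LIPA at 0.0424 against 69.4, progranulin (GRN) at 42.7 against 512 and the leukocyte lysosomal membrane gene LAPTM5 at 48.2 against 1612. The regulators split: TFEB was at 2.58 against 44.4, but MITF, of the same family, at 28.2 against 3.32. The cholesterol exporter NPC1 was higher in K562 at the deposited scaling (90.7 against 20.7, 2.08) but not with median-ratio scaling (1.88).

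Growth factor receptors were higher in THP1 for 8 of 14 and in K562 for 1 (median −3.20). Besides CSF1R these included FLT3 (0 against 83.5), the granulocyte colony-stimulating factor receptor CSF3R (0.0706 against 168), FGFR1 (0.127 against 91.96) and the insulin receptor INSR (1.76 against 61.7). LIFR was the receptor higher in K562, at 7.72 against 0.0458. KIT was low in both, at 4.08 and 6.28.

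The JAK-STAT list showed the opposite balance, with 7 of 16 higher in K562 and 2 in THP1 (median 1.35). Among the transducers, STAT5A was at 454 in K562 and 12.1 in THP1 (5.12) and STAT5B at 251 and 57.003 (2.12, or 1.92 with median-ratio scaling, under 4-fold). Also higher in K562 were SOCS2 (109 against 0.81), CISH (71.1 against 11.6), PIM1 (397 against 15.2), PIM2 (132 against 14.2) and SOCS3 (31.6 against 1.88). Some of these are known targets of STAT5, but a link between their levels and STAT5 was not tested. STAT6 (34.3 against 176) and the phosphatase PTPN6, a brake on cytokine receptors (1.28 against 143), were higher in THP1. The kinases JAK1 (0.43) and JAK2 (0.75) were within 2-fold.

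Src-family kinases and their partners were higher in THP1 for 5 of 11 and in K562 for 1. The myeloid kinase FGR (0 against 11.6), SYK (30.001 against 430.0), the inositol phosphatase INPP5D (1.12 against 495) and the adaptor PAG1 (0 against 66.5) were higher in THP1. YES1 was higher in K562, at 247 against 25.8, and LYN was within 2-fold at 191 and 107.

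In the BCL2 family, which governs apoptosis, 1 of 13 (7.69%) was higher in K562 and 3 (23.1%) in THP1 (median −0.38). Over all genes the shares were 9.23% and 13.7%. The count for THP1 was 1 with a minimum level of 20 or a pseudocount of 5. So few genes say nothing about the family as a whole. The survival genes differed in opposite directions. BCL2 was at 1.62 in K562 and 163 in THP1 (−5.97), BCL2L1 (BCL-XL) at 216 and 35.4 (2.57), and MCL1 at 375 and 397. The pro-death genes BIK (0.0424 against 10.5) and BMF (1.14 against 14.8) were higher in THP1, while the effectors BAX (−0.38) and BAK1 (−0.66) were within 2-fold.

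Among cell cycle regulators, 2 of 14 (14.3%) were higher in K562 and 1 (7.14%) in THP1, shares near the 9.23% and 13.7% of all genes, so only single genes are described. The D-type cyclin CCND2 was at 30.6 against 0.107, while CCND3 (252 against 344) and the kinases CDK4 (219 against 215) and CDK6 (179 against 129) were within 2-fold. Of the inhibitors, CDKN1C was at 13.003 against 1.21 and CDKN1A (p21) at 5.94 against 43.4. CDKN2A, CDKN2B and their chromosome 9 neighbour MTAP had no read in either line, whereas MTAP was at 37.6 in HL60 and 24.3 in SUDHL4.

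The homeobox genes that reached the minimum level went in opposite directions by cluster. The other 8 of 13 measured in the HOXA list and 4 of 9 in the HOXB list were under 5 in both lines. Genes at 0 in one line pass 4-fold once they reach 5 in the other, so these counts are partly set by the minimum level. Of the HOXA list, 5 of 5 compared were higher in THP1, with HOXA9 (19.8), HOXA10 (44.2), HOXA11 (27.5) and HOXA13 (25.1) at 0 in K562 and the cofactor PBX3 at 1.74 against 107. Of the HOXB list, 5 of 5 compared were higher in K562, with HOXB9 at 196 against 0, HOXB4 at 36.6 against 2.34 and HOXB2 at 19.9 against 0. The HOXA cofactor MEIS1 was low in both, at 1.34 and 0. With zeros at 3 reads, the list medians were −8.21 for HOXA and 6.33 for HOXB. Without a minimum level they were −1.33 and 2.55. HOXB7 and HOXB8 were the other HOXB genes higher in K562, the count being 2 with a minimum level of 20, and HOXB3 joined them with total-read scaling.

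Stem and progenitor genes were higher in K562 for 6 of 10 compared and in THP1 for 2. The K562 side held the oncofetal RNA-binding genes LIN28B (178 against 0.107) and IGF2BP3 (153 against 2.28) and the DNA methyltransferase DNMT3B (118 against 7.17). IGF2BP2 was present in both lines, at 108 and 178. MLLT3, a stem cell regulator, was higher in THP1, at 0.155 against 7.04, as was FLT3.

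Cancer-testis genes are read mainly in the male germ line. They were higher in K562 for 13 of 14 compared, with a median of 5.70 (9.12 with zeros at 3 reads). PRAME was at 1471 against 54.1, and LAGE3 was the one short of 4-fold, at 37.8 against 18.3. SSX1 (135), MAGEA3 (124), MAGEA6 (108) and MAGEC2 (64.3) had no read in THP1, and 14 of the 19 measured had none there. Families such as MAGEA3 with MAGEA6, SSX and GAGE have near-identical copies, so their single values are uncertain. Of the epithelial and stromal markers, 5 of 6 compared were higher in K562: KRT8 (687 against 2.73), KRT18, KRT19 (151 against 0), EPCAM (117 against 0.107) and the collagen COL1A2 (21.9 against 0). Their summed level was 2591 in K562 and 313 in THP1, most of the latter being vimentin (VIM, 993 and 308). COL1A1 (0.296), COL3A1 (0.0706) and THY1 (0) were at or near 0 in K562. Whether cells of another type contributed to these levels was not tested. Single markers of lymphocytes also stood out, CD3D at 14.6 against 0.199 and CD22 at 5.01 against 0.107 in K562, and NKG7 at 0.127 against 44.9 in THP1. CD22 fell under the minimum level with median-ratio or housekeeping scaling and under 4-fold with a pseudocount of 5, and CD3D was under 4-fold with that pseudocount.

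The metabolic lists had medians closer to that of all genes (0.23) than the globin, red cell membrane or monocyte lists. In the cholesterol, glycolysis and amino acid lists 20%, 22.7% and 15.8% were higher in K562, beside 9.23% of all genes. None was higher in THP1, beside 13.7% of all genes. With so few calls, single genes are described. In cholesterol synthesis, 4 of 20 were higher in K562 and none in THP1 (median 1.106), led by the early enzyme HMGCS1 (1109 against 146) and IDI1 (413 against 76.3), with INSIG1 (2.05) losing its call under median-ratio scaling (1.85). In glycolysis and hypoxia, 5 of 22 were higher in K562 and none in THP1 (median 0.38): the glucose transporter SLC2A3 (264 against 4.51), hexokinase HK1 (1241 against 63.2), PFKM, ENO2 and the oxygen sensor EGLN3 (41.5 against 0.901). The bulk enzymes did not differ in this way, with GAPDH at 5876 against 5107, ENO1 at 7395 against 6794 and PKM at 1176 against 2451. Of the amino acid genes, 3 of 19 were higher in K562: asparagine synthetase ASNS (726 against 19.4), the cystine transporter SLC7A11 (55.95 against 4.54) and the glycine transporter SLC6A9, which supplies haem synthesis (15.1 against 1.30). ATF4, which controls ASNS, was at 226 against 175.

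In the glutathione list, 3 of 17 (17.6%) were higher in K562 and 2 (11.8%) in THP1, beside 9.23% and 13.7% of all genes, so here too only single genes are described. GCLM (183 against 28.8), glutathione reductase GSR (95.002 against 16.5) and NQO1 (107 against 24.2) were higher in K562, the last falling under 4-fold with median-ratio scaling (1.90). GPX1, the cytosolic glutathione peroxidase, had no read in K562 and stood at 481 in THP1 (at least 5677-fold higher), 89.5 in HL60 and 19.4 in SUDHL4. The related GPX4 was at 134 and 211, and catalase (CAT) at 210.4 and 473.

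Several general programmes held no gene 4-fold apart. None of 20 S phase genes, 11 MYC network genes and 26 housekeeping genes was 4-fold apart in either direction, with medians of 0.28, −0.05 and 0.25 beside 0.23 for all genes. MYC itself was at 194 and 187. Mitotic genes had a median of 1.22, with the higher level in K562 for 18 of 20 and a summed level of 4511 against 2783, though 18 of 20 were short of 4-fold. Examples are CCNB1 (358 against 127), TPX2 (604 against 225) and MKI67 (469 against 403). CDK1 was higher in K562 (248 against 45.1). UBE2C, a ubiquitin-conjugating enzyme needed for mitotic exit, had 3 reads in K562 (0.0988) and stood at 33.05 in THP1, a ratio of 390 between reads scaled without the added 0.5 (95% counting interval 133 to 1894), with 83.6 in HL60 and 97.8 in SUDHL4. ACTB, the cytoplasmic actin, was at 2016 and 6798, a difference of −1.75.

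Some genes were read at 50 or more in one line and not at all in the other. There were 87 without a read in K562 and 36 without one in THP1. HL60 and SUDHL4 show which of these are genes that other blood lines read. Over all genes compared, 71.1% reached 5 in both HL60 and SUDHL4. The share was 32.1% among genes 4-fold higher in K562 and 30.5% among those higher in THP1. Of the 87, 18 reached 5 in both HL60 and SUDHL4. Among these were GPX1, FLI1, ITGB2, ITGAL, NCF4, PAG1 and the leukotriene gene ALOX5AP. Another 18 of the 87 were under 1 in both. Of the 36, 2 reached 5 in both and 29 were under 1 in both. Those 2 were ELOVL6, a fatty acid elongase (116 in K562, 44.7 in HL60 and 29.2 in SUDHL4), and EMD, which encodes the nuclear envelope protein emerin (128, 79.3 and 64.1). In the mixtures EMD ranged from 49.0 to 97.1.

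The pure HL60 and SUDHL4 libraries had no part in choosing the genes 4-fold apart. Of the 1015 genes higher in K562, 404 (39.8%) reached 5 in HL60, 419 (41.3%) in SUDHL4 and 518 (51.0%) in neither. Of the 1507 higher in THP1, 791 (52.5%) reached 5 in HL60, 603 (40.0%) in SUDHL4 and 572 (37.96%) in neither. Over all genes compared, 79.7% reached 5 in HL60, 76.2% in SUDHL4 and 15.2% were in neither. The share read in HL60 was larger among the genes of THP1 than among those of K562, while the shares read in SUDHL4 were similar.

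The mixtures give a second view of genes that were largely restricted to one line, defined as 50 or more there and at most 1% of that level in each other pure line. There were 61 such genes for K562 and 36 for THP1. As a percentage of their pure level, the median of the K562 genes was 20.8, 19.3, 34.7, 0.00268, 50.2 and 50.4 in mixtures 1 to 6, and that of the THP1 genes 27.5, 22.2, 32.7, 29.8, 33.7 and 26.2. In mixture 4 the K562 genes were at or near 0, none of the 61 exceeding 0.854%. In mixture 5 the K562 genes ranged from 28.1% to 137%, against 21.1% to 46.4% for the THP1 genes. The highest were HBA2 at 137%, HBA1 at 119%, HBZ at 118% and KLF1 at 105% of the pure K562 level, and in mixture 6 HBA2 stood at 99.4%. HBE1 was at 572, 689, 898, 0.133, 1655 and 1603 in the 6 mixtures, while CHI3L1 was between 649.98 and 931. The levels of HBA1, HBA2, HBZ and KLF1 in mixture 5 thus exceeded those of the pure line, beside the median of 50.2% over the 61 genes.

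**Figure D4:**
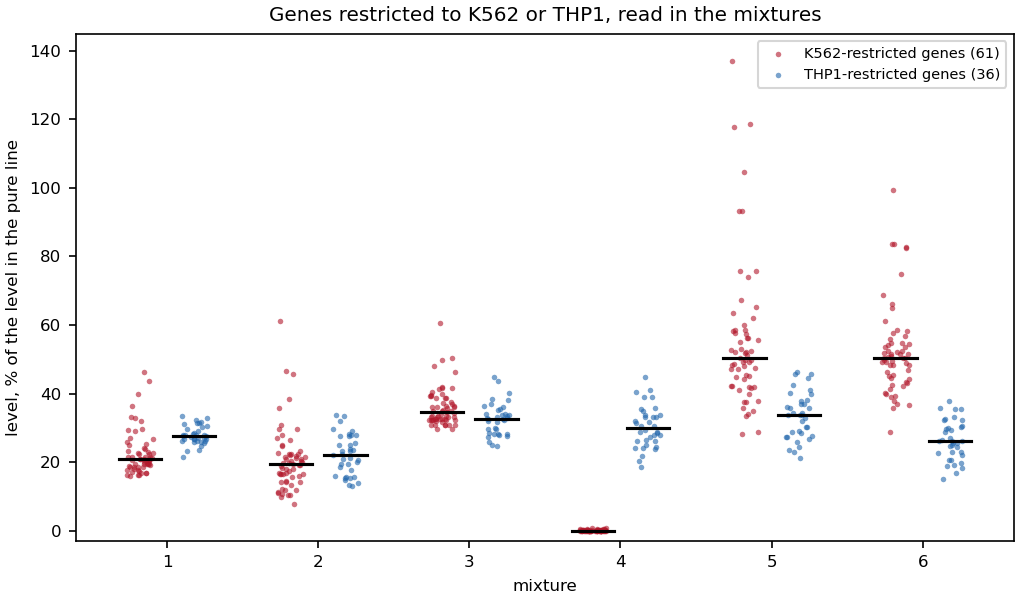
Level in each of the 6 mixtures as a percentage of the level in the pure line, for 61 genes largely restricted to K562 and 36 largely restricted to THP1. The K562 genes are near 0 in mixture 4 and spread from 28.1% to 137% in mixture 5, while the THP1 genes stay between 13.01% and 46.4% in all mixtures.

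The genes 4-fold apart were not spread evenly over the chromosomes. On chromosome 10, 102 of 406 genes (25.1%) were higher in K562, against 9.23% of all genes, and 45 (11.1%) were higher in THP1, with a chromosome median of 1.26 log2 units. Of its genes, 325 (80.0%) had the higher level in K562 of the 2 lines, against 57.3% of all genes. The median level, as log2(normalised CPM + 1), was 4.76 in HL60, 4.84 in K562, 4.91 in SUDHL4 and 3.86 in THP1, and THP1 was the lowest of the 4 lines for 246 of the 406 (60.6%), against 30.4% of all genes. The low values were therefore those of THP1. Chromosome 6 followed, with 96 of 567 genes (16.9%) higher in K562, and the X chromosome had 14.97% in each direction. On the side of THP1, chromosome 22 had 17.7% and chromosome 1 16.8%. Copy number was not measured in these libraries, and its part in these differences was not tested.

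**Figure D5:**
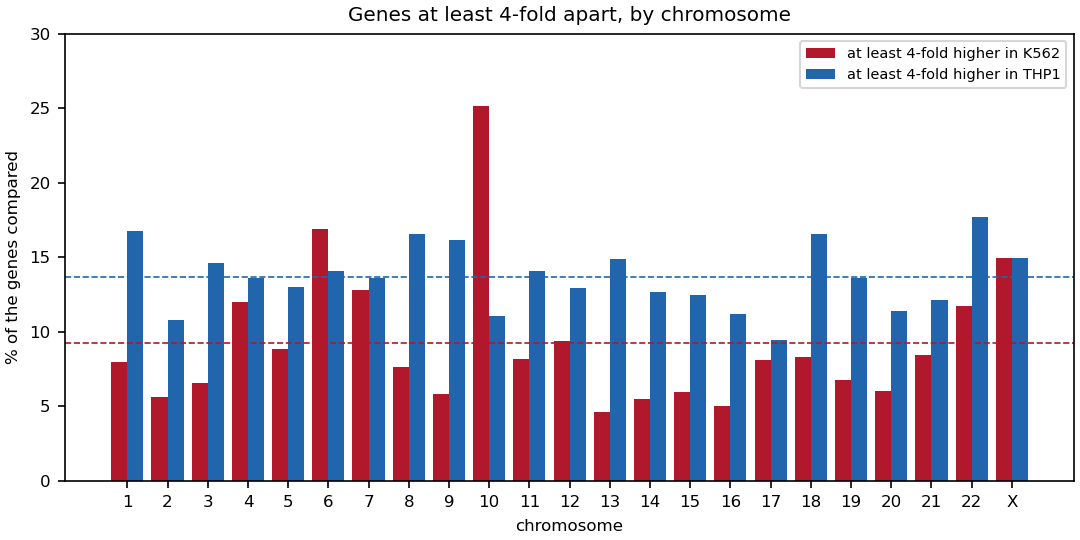
Percentage of compared genes on each chromosome that were at least 4-fold higher in K562 or in THP1, with dashed lines at the shares over all genes (9.23% and 13.7%). Chromosome 10 stands out for K562, at 25.1%.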

How the data were processed

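Bulk RNA of the cultures was sequenced once per line. Per the submitters' processing notes, the tools were HISAT2 and featureCounts, with Cell Ranger ARC 2.0.0 also listed, and hg19 was the build. Annotation, settings and scaling are not given in the sources used here. A single table of 20591 genes by Ensembl ID was deposited, and its unit is a signal that the authors had scaled. These are on the scale of counts per 1000000, but the columns sum to 976427 in K562 and 986599 in THP1, so libraries had been rescaled. Every value above 0 was a whole number of reads plus 0.5, times a constant per library (100% whole within 0.01). Plain CPM had been assumed; the rules were applied to these values as they stood. Genes had at least 11 reads over the 10 libraries together.

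From these values, log2((K562 + 1)/(THP1 + 1)) was computed for genes at 5 or more in either line, and 4-fold (2 log2 units) was the limit. With 1 library per line there are no residual degrees of freedom, so no count model was fitted. Where a line had 0 reads, the fold was taken against 3 reads as a lower bound; ratios over 1 to 3 reads have exact 95% counting intervals. Amplified reads do not count molecules one by one, so all intervals cover counting error only.

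The named genes were the 12 per direction with the largest difference among those at 50 or more, plus members of 43 gene lists as examples of the highest level, the largest difference or the opposite direction. Members and lists were chosen with earlier results of these data known. The list of mitochondrially encoded genes had no measured member, and a list of 20 reference genes for scaling had none 4-fold apart. Alternatives were 3 other scalings, 2 other pseudocounts, 3 other minimum levels, 2 other fold limits and other window lengths. Symbols came from the reference tables for 18159 genes and from the file for 237; chromosomes and gene types came from GENCODE release 29. The computation was tested on simulated data, with Python 3.11.15, numpy 2.4.6, pandas 2.3.3, scipy 1.17.1 and matplotlib 3.10.9. Some genes are not reported here.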

Additional observations from a re-analysis of the deposited data

How the results depend on the processing

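The numbers of genes higher in K562 and in THP1 (1015 and 1507) moved by over 1.5 times with a pseudocount of 5 (542 and 848), a minimum level of 20 (675 and 844), a limit of 2-fold (2813 and 2348) or one of 8-fold (485 and 996). At 2-fold K562 had 54.5% of the calls, against 40.2% at 4-fold. With the minimum level at 20 in place of 50, genes without a read numbered 196 in K562 and 80 in THP1, against 87 and 36. Other scalings gave 875 to 1037 and 1516 to 1635 genes. Median-ratio scaling moved the median of all genes by −0.21 and housekeeping scaling by −0.18 log2 units, and list differences are to be read relative to that shift. Of 84 list counts, 52 were equal with a pseudocount of 5, the largest change being 7 genes, and with a minimum of 20 54 of 82 were, with a largest change of 6. Medians of 3 lists changed sign. That of the reference genes for scaling went from 0.17 to −0.03 with median-ratio scaling. With genes under the usual minimum let in, the B cell markers went from 2.44 to −0.96 at a minimum of 1 and −0.56 without one, and the stem and progenitor genes from 2.93 to −0.011 without one. No paired analysis was possible because each line has 1 library and no replicate numbers. A level under 3 reads cannot be told from 0, and nothing here measures the spread between cultures.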

Other observations

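Neighbouring genes that differ together were sought by ordering the compared genes along each chromosome and taking the median log2 difference of every run of 15 neighbours. On the side of THP1, the run of largest median (−3.61) lay on chromosome 1 and ended at PPCS, a gene of coenzyme A synthesis. All 15 genes were lower in K562, 12 of them by at least 4-fold, and THP1 was the highest of the 4 pure lines for 15 of 15. Median levels were 7.46 in THP1, 2.66 in K562, 2.32 in HL60 and 3.80 in SUDHL4, as log2(normalised CPM + 1). In a run of 25 genes, from MYCL to PPCS, 25 of 25 were lower in K562 and 19 passed 4-fold. Chosen after their values were seen, CTPS1, an enzyme of cytidine nucleotide synthesis, was at 178 in K562 and 461 in THP1, the transcription factor subunit NFYC at 47.4 and 739, and the palmitoyl thioesterase PPT1 at 262 and 6966. The run holds genes of unrelated function. A second run on chromosome 6 (median −3.38) held the class II HLA genes with PSMB8, PSMB9 and TAP1. It was not uniform: 10 genes were lower in K562, 9 by at least 4-fold, and 5 were higher, 1 by at least 4-fold. THP1 was the highest line for 5 of its genes, and the median level was 5.68 in THP1 and 5.86 in SUDHL4. Another on chromosome 16 (−3.17) held IRX3, IRX5, the matrix metalloproteinase MMP2 and the metallothioneins MT2A, MT1E, MT1F and MT1G. There 12 genes were lower in K562, 9 by at least 4-fold, and 3 were higher.

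On the side of K562, the run of largest median (3.66) lay on chromosome 6 among histone and butyrophilin genes, from H1-2 to H2AC11, with 10 of 15 genes past 4-fold and K562 the highest of the 4 lines for 13. The second (2.90) lay on chromosome 10, from ALOX5 to ASAH2B, with 9 genes at least 4-fold higher in K562 and 2 in THP1. Another (2.40) lay on chromosome 11, with 12 genes higher in K562 and 3 lower. Its 8 genes past 4-fold included the globin genes HBD, HBG1, HBG2 and HBE1.

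Histone genes gave further values. Of 9 compared genes from a list of transcripts with little or no poly(A) tail, 7 were higher in K562 and 1 in THP1. H1-2 was at 1008 in K562 and 3.22 in THP1, H2BC12 at 383 and 3.62, and H2AC6 at 169 and 0.504. The non-coding 7SK RNA, also without a tail, was at 14.9 and 15.1, and RMRP at 1.99 and 2.73. Because histone genes resemble each other closely, their single values are uncertain. The labels do not say which kit was used for which library, and the part of the kit in these values was not tested.

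Long non-coding genes had a larger share 4-fold apart than protein-coding genes, a difference that was not tested. Of 215 compared, 71 (33.0%) were higher in K562 and 42 (19.5%) in THP1, while of 10333 protein-coding genes 898 (8.69%) and 1432 (13.9%) were. Of 317 pseudogenes, 22 and 17 were. UCA1 and H19, chosen after their values were seen, were at 51.9 and 93.6 in K562 against 0 and 0.0458 in THP1.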
